A study of Mus musculus with 19 samples.

Results

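The comparison set the left ventricles of 7 mice that developed heart failure after banding of the aorta against those of 7 mice that had the same operation and no heart failure, by their labels. These were 14 of the 19 mice of a study of ventricular remodelling and the extracellular matrix, and the other 5 mice had a sham operation and serve as the unbanded level. All were male C57BL/6 mice without a stated genetic change, whose surgery was done at 7 weeks of age and whose hearts were collected after 4 further weeks. The left ventricle was frozen after its separation from the atria and the right ventricle, and each mouse gave 1 Affymetrix array of total RNA. The labels do not give the criterion for heart failure, so a difference between the groups is one between mice sorted by an outcome, not by a treatment. Of 18595 probe sets that carry 1 gene symbol and had a log2 signal above 4 on at least 5 arrays, the one with the highest mean over the 19 arrays stood for its gene, which left 10733 genes.

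A narrowed aorta makes the left ventricle pump against a higher pressure. Its cardiomyocytes, the contracting muscle cells, grow and switch on genes of the fetal heart, while fibroblasts add collagen and other matrix that stiffens the wall. Some hearts hold this state, and others fail, so that blood backs up into the lungs and loads the right ventricle.

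The tissue read as heart muscle, on a list of markers of cardiomyocytes rather than of the ventricle. The atrial gene Myl7, taken up below, varied widely between mice. It was 8.86 to 13.75 without and 2.30 to 13.89 with failure. All 15 cardiomyocyte markers on the list were measured, and their mean log2 signal lay between 14.8 and 14.9 in mice without failure and between 14.8 and 14.9 in mice with it. The failing hearts were larger. Relative to tibia length, the left ventricle weighed 6.98 ± 0.435 (SD, n = 7) without and 8.97 ± 0.607 (SD, n = 7) with failure, with no overlap (6.42 to 7.59 against 8.09 to 9.75), and the sham mean was 5.14 ± 0.261 (SD, n = 5). Between the banded groups, the right ventricle differed by a larger share than the left. The ratio of right to left ventricular weight was 0.191 ± 0.0236 without and 0.228 ± 0.02 with failure (two-sided exact permutation p = 0.0111, n = 7 and 7, adjusted p = 0.0138 over 5 measures). The mean sham ratio was above both, at 0.271 ± 0.0386 (SD, n = 5). Lung weight over tibia length was 9.1 ± 0.8 without and 20.4 ± 2.19 with failure. Because either weight could have defined failure, which the labels leave unstated, these weights describe the groups and support nothing further.

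Some arrays stood apart before any gene was compared. The array's probe set for 18S ribosomal RNA, a control, read 11 to 11.8 on the arrays of mice 5 to 7 without failure, 5.14 to 6.89 in the other 4 mice without failure and 5.64 to 7.62 in all 7 mice with failure. These 3 mice are called the high 18S mice here, and the other 11 banded mice the low 18S set. Of the sham arrays, 3 also read high, at 9.03 to 10.1. The spike-in control BioC, added in a fixed amount, was also lower in the high 18S mice (8.6 to 9.2) than in mice with failure (10.3 to 10.6). In the 3 sham arrays with high 18S it was not low (10.7 to 11). All 3 high 18S mice belong to the first of 3 series of animal numbers. That series also holds mice 1 and 2 with failure and the 3 sham mice with high 18S. Mouse 5 with failure differed most from its own group, with 571 genes more than 1 log2 unit from the median of the other 6, where each of the other 13 banded mice had 44 to 113 such genes. Group differences were therefore also computed within the low 18S set (7 against 4 mice), with a block for array set, and within each series of animal numbers. The low 18S fit left out the 3 sham arrays with high 18S, and the block counted them with the high 18S mice.

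Ventricles with and without failure differed in 1017 of the 10733 genes (limma with Benjamini-Hochberg adjustment, adjusted p under 0.05), which is 9.48% of those tested. Of these, 411 were higher with failure (3.83%) and 606 lower (5.65%), and the median difference over all genes was -0.01. Most changes were small. A difference of at least 2-fold was reached by 52 higher genes (0.484%) and 11 lower ones (0.102%). All 7 mice with failure lay above all 7 without in 90 genes (0.839%) and below them in 193 (1.8%), which makes 283 genes without overlap (2.64%). These shares are the background for the list counts below. Without the sham arrays, which share only the estimate of spread, the fit called 1108 genes.

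The number of calls depended on which mice entered. In the 7 against 4 mice of the low 18S set, 66 genes were higher (0.615%) and 83 lower (0.773%), and 128 of these 149 were among the 1017. With the array set as a block, 417 were higher (3.89%) and 540 lower (5.03%), of which 650 were among the 1017. The shares in these 2 fits are the background for list counts from the same fits below. All 1017 kept their direction in both fits, whose mice are part of the same comparison. Within the series of animal numbers that holds the high 18S mice (2 against 3 mice), 655 genes were higher (6.1%) and 1158 lower (10.8%). All its mice without failure are high 18S and none with failure is, so group and array set cannot be told apart there. Within the third series (3 against 2 mice) limma called 3 lower (0.028%) and 0 higher, with 1346 at an unadjusted p under 0.05. Within the second series (2 against 2 mice) it called 0 in either direction, with 906 at an unadjusted p under 0.05. The count fell to 508 without mouse 5 without failure, to 672 without mouse 6 without failure and to 599 without mouse 2 with failure. Of the 83 genes past the threshold that the naming rule picks, 16 also passed in the low 18S set: Lox, Loxl3, Col12a1, Vcan, Cd44, Timp1, Frzb, Lman1l, Uchl1, Capg, Ttll1, Mlycd, Atp5e, Mcee, Slc2a4 and Rxrg. The other 67 kept their direction there and lost the call (limma, adjusted p from 0.0508 for Scn4b to 0.344 for Rps6).

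The largest rises were in genes of the extracellular matrix. Ranked by the size of the rise, the first 10 genes past the threshold were Cthrc1, Lox, Chodl, Comp, Star, Sprr1a, Fmod, Col12a1, Thbs4 and Ltbp2. Of these, Lox, Comp, Fmod, Col12a1, Thbs4 and Ltbp2 belong to the matrix lists used here, and Cthrc1 is a secreted protein of fibroblasts linked to collagen deposition.

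Lox encodes lysyl oxidase, the enzyme that crosslinks collagen and elastin. Its log2 signal was 6.95 to 9.02 (median 7.95) without failure and 9.25 to 10.97 (median 9.99) with failure. No mouse overlapped between the groups, and the sham mean was 6.66 ± 0.84 (SD, n = 5). The difference was 2.05 ± 0.34 (SE), or 4.13-fold (limma, adjusted p = 0.0027), and it stayed past the threshold in the low 18S set at 1.94 (adjusted p = 0.034). Loxl3, a lysyl oxidase-like enzyme, was 6.75 to 8.12 (median 7.78) without and 8.36 to 9.03 (median 8.63) with failure, again with no overlap. It was 2.09-fold higher (log2 difference 1.06 ± 0.17, limma adjusted p = 0.0017) and also passed in the low 18S set (adjusted p = 0.0401). In all, 7 of the 22 genes of collagen processing and crosslinking rose and none fell, with a median of 0.30, and all 22 differences were positive. The other 5 were the prolyl hydroxylases P3h2 (0.78), P4ha1 (0.38) and P3h1 (0.36), which modify the collagen chain, and Pcolce (0.68) and Pcolce2 (0.51), which enhance the removal of its C-terminal propeptide. With the array set as a block, 4 of the 22 passed.

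**Figure D1:**
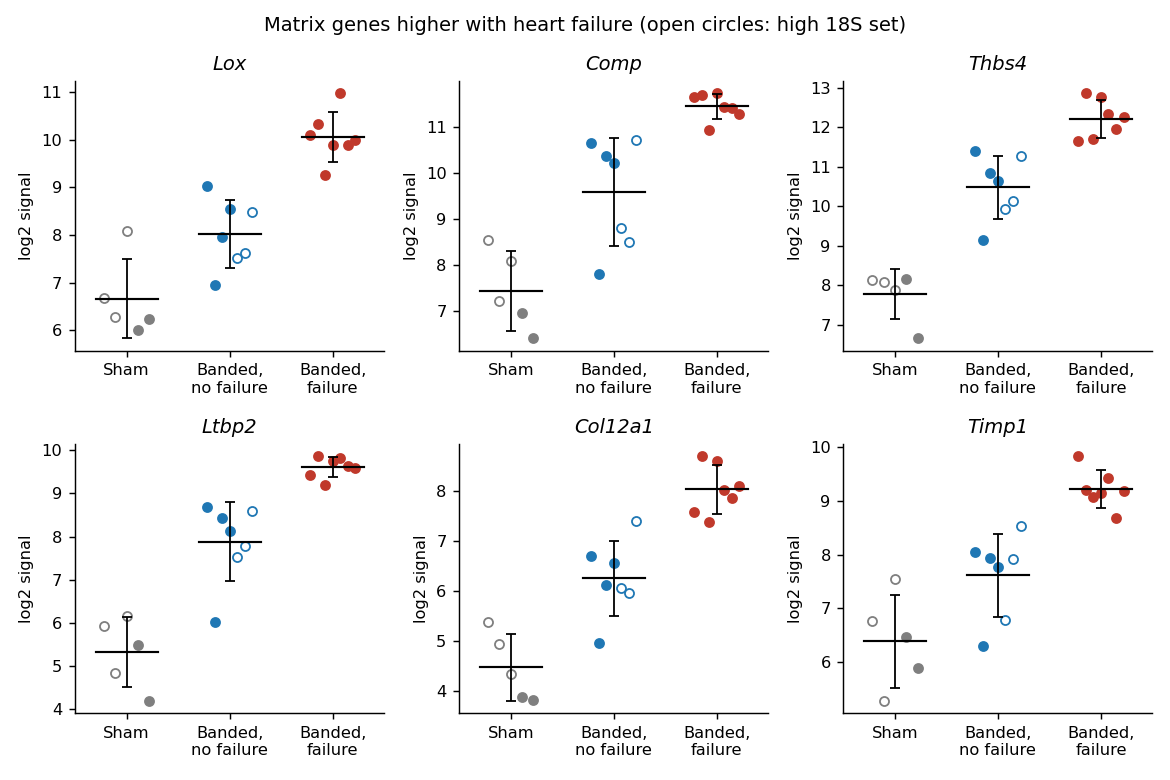
Log2 signal of 6 matrix genes in each of the 19 mice, by group. Each point is 1 mouse, open circles mark the high 18S arrays, horizontal lines are means and bars the SD. All 7 mice with failure lie above all 7 without for Lox, Comp, Thbs4, Ltbp2 and Timp1, and the highest Col12a1 value without failure, 7.41, lies just above the lowest with failure, 7.37.

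Of the 10 fibrillar and fibril-associated collagens, 6 rose and none fell, and their median of 0.81 was the highest of the 35 function lists. Col12a1, which coats collagen fibrils, was 4.98 to 7.41 (median 6.13) without failure and 7.37 to 8.70 (median 8.02) with failure. The ranges touched at 1 mouse without failure, mouse 7, and the difference was 1.78 ± 0.32, or 3.43-fold (limma, adjusted p = 0.00384, and 0.0297 in the low 18S set). The chains of the most abundant heart collagens rose less. Col1a2 was 11.48 to 12.71 (median 12.15) without and 12.67 to 13.29 (median 13.03) with failure, an overlap at the edge and a 1.91-fold rise (limma, adjusted p = 0.0109). Col1a1 rose 1.83-fold (limma, adjusted p = 0.0392), and its value was 1.40 in the first series of animal numbers, 1.13 in the second and 0.15 in the third. The second probe set of Col1a1 gave 0.43 (limma, unadjusted p = 0.0874). Col3a1, the chain of type III collagen, differed by 0.60 ± 0.20 and missed the threshold (limma, adjusted p = 0.0586). The fibril-regulating Col5a1 and Col5a2 rose by 0.70 and 0.86, and Col16a1 by 0.76. Only Col12a1 of this list passed in the low 18S set, where the median of the list was 0.68.

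The list of basement membrane and network-forming chains had 7 genes that rose and 1 that fell among 24. Col8a1 and Col8a2, the chains of the network-forming type VIII collagen, rose most. Col8a1 was 10.95 to 12.02 (median 11.61) without and 11.93 to 12.63 (median 12.49) with failure (1.84-fold, limma adjusted p = 0.00446), with an overlap at the edge. Of its 3 probe sets, 2 were higher at an unadjusted p under 0.05. Col8a2 was 4.98 to 7.84 (median 6.79) without and 6.14 to 9.17 (median 8.25) with failure (3.18-fold, limma adjusted p = 0.0335), and the lowest of the mice with failure was mouse 5. Its adjusted p was 0.0763 without mouse 2 with failure, and its difference in the third series of animal numbers was only 0.26. Col4a3, Col6a2, Col6a1, Lama2 and Col4a1 rose by 0.73, 0.62, 0.55, 0.39 and 0.31, while Lama5, a laminin chain of vessel walls, fell by 0.38. None of the 24 passed in the low 18S set.

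Matricellular proteins sit in the matrix and act on cells more than they bear load. Of 22 such genes, 9 rose, none fell and all 22 differences were positive, with a median of 0.69. Comp, which binds collagen fibrils, was 7.81 to 10.71 (median 10.22) without and 10.94 to 11.73 (median 11.44) with failure. No mouse overlapped, and the sham mean was 7.45 ± 0.86 (SD, n = 5). Its rise was 3.62-fold (log2 difference 1.86 ± 0.43, limma adjusted p = 0.0118). Mice 2, 5 and 6 without failure, at 7.81, 8.82 and 8.51, lay near the sham range and the other 4 at 10.2 to 10.7, so the group without failure was itself spread widely. Thbs4, a thrombospondin, was 9.15 to 11.40 (median 10.64) without and 11.66 to 12.86 (median 12.26) with failure (3.34-fold, limma adjusted p = 0.00446), with no overlap.

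Postn, which marks activated fibroblasts, was 12.01 to 13.59 (median 13.07) without and 13.78 to 14.28 (median 13.90) with failure, also without overlap (2.09-fold, limma adjusted p = 0.00568). Cilp (1.35), Tnc (1.15), Thbs1 (0.997), Ccn2 (0.94), Fstl1 (0.73) and Fstl3 (0.65) made up the rest of the 9. For Comp, Thbs4 and Postn the differences in the low 18S set were 1.68, 1.72 and 1.01, with adjusted p of 0.0717, 0.0603 and 0.0632, past the threshold for none. No member of the list passed there, where its median was 0.56, and 10 passed with the array set as a block. Cthrc1 has levels rather than a fold, since 3 of 7 mice without failure lay below log2 4: it was 3.24 to 6.19 (median 5.77) without and 5.98 to 7.92 (median 6.82) with failure (limma, adjusted p = 0.011).

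Elastic fibres and their microfibrils let the wall recoil. Of 16 such genes 9 rose, and Emilin2, a glycoprotein of the elastic fibre surface, fell by 0.79. Ltbp2, which binds microfibrils, was 6.03 to 8.70 (median 8.12) without and 9.20 to 9.87 (median 9.64) with failure. Every mouse with failure lay above every mouse without failure (3.33-fold, limma adjusted p = 0.00629, SE of the log2 difference 0.35). Mfap4, a microfibril-associated protein, was 8.11 to 9.92 (median 9.002) without and 10.02 to 10.72 (median 10.27) with failure (2.56-fold, limma adjusted p = 0.00637), with no overlap. Its difference was 2.21 in the first series of animal numbers and 0.46 in the third. Mfap5 rose 2.17-fold and passed in the low 18S set too (adjusted p = 0.0487). Emilin1, Ltbp3, Mgp, Fbln5, Fbln2 and Mfap2 rose by 0.56 to 0.66.

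Small leucine-rich proteoglycans bind collagen fibrils and set their width. Of 11, 5 rose and none fell: Fmod, Bgn, Prelp (0.63), Aspn (0.57) and Dcn (0.36). Fmod was 8.54 to 11.37 (median 10.29) without and 11.03 to 12.94 (median 11.53) with failure, an overlap at the edge, and 6 of its 6 probe sets were higher at an unadjusted p under 0.05 (3.49-fold, limma adjusted p = 0.0184). Bgn rose 1.69-fold (limma, adjusted p = 0.00446). Among 12 other proteoglycan and hyaluronan genes, Vcan, a large hyaluronan-binding proteoglycan, rose 1.64-fold (limma, adjusted p = 0.0398) and Cd44, the hyaluronan receptor, 1.44-fold (adjusted p = 0.0234). Both passed in the low 18S set as well, at adjusted p of 0.0487 and 0.0427. Gpc6 rose by 0.46 and Gpc1 fell by 0.25, both of them glypicans, which carry heparan sulfate at the cell surface.

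Timp1, an inhibitor of matrix metalloproteinases, was 6.31 to 8.54 (median 7.92) without failure and 8.68 to 9.84 (median 9.19) with failure. No mouse overlapped, and its 3.05-fold rise (limma, adjusted p = 0.00742) passed in the low 18S set at a log2 difference of 1.71 (adjusted p = 0.0333). The gelatinase Mmp2 rose 1.75-fold and the membrane protease Mmp14 1.68-fold (limma, adjusted p = 0.00765 and 0.013). Of 28 proteases and inhibitors, Plat (0.45) and Adam9 (0.40) also rose and Adamts7 fell by 0.55. The matrix protease list thus held both enzymes and an inhibitor among its 5 rises.

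TGF-beta signals drive fibroblasts to make matrix. Of 28 ligands, receptors and targets, 4 rose and 1 fell, and the median of 0.06 was near that of all genes. The changes were in ligands and receptors. Tgfb2 was 8.68 to 9.82 (median 9.43) without and 9.92 to 10.72 (median 10.32) with failure, with no overlap and 4 of 4 probe sets higher (2.04-fold, limma adjusted p = 0.00708). Tgfb3 rose 1.62-fold (adjusted p = 0.0274), but its difference was 1.19 in the first series of animal numbers and 0.01 in the third. The receptors Tgfbr1 and Tgfbr2 rose by 0.47 and 0.41, and the activin receptor Acvr2b fell from 4.03 to 4.80 (median 4.16) without to 3.26 to 4.04 (median 3.69) with failure, mostly below log2 4 (adjusted p = 0.0387).

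Integrins link cells to the matrix. Of 15, Itgb5 (0.48), Itgav (0.28) and Itga1 (0.28) rose and none fell. Itgav and Itgb5 form one receptor, which activates latent TGF-beta. Itgav was 10.54 to 10.80 (median 10.77) without and 10.81 to 11.24 (median 10.97) with failure, with no overlap despite the small difference.

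Secreted modulators of Wnt and of insulin-like growth factors moved in part. Frzb, which binds Wnt ligands outside the cell, was 7.68 to 9.19 (median 8.60) without and 9.27 to 9.98 (median 9.68) with failure. The groups did not overlap, and its 2.13-fold rise (limma, adjusted p = 0.00299) passed in the low 18S set (adjusted p = 0.0401). Sfrp1 and the receptor Fzd1 rose by 0.93 and 0.47 and the ligand Wnt5a fell by 0.39, among 20 genes of the list. Of 11 genes of the insulin-like growth factor system, the binding proteins Igfbp6, Igfbp3 and Igfbp7 rose by 0.81, 0.79 and 0.48.

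Fibroblast markers rose with the matrix. Of 15 markers 6 rose and none fell, with a median of 0.34, and several of the 6 are matrix genes already counted. With the array set as a block 3 of the 15 rose, beside 3.89% of all genes. In the low 18S set 2 rose, beside 0.615%, and the median was 0.25. It was 0.13 in the third series of animal numbers. Neither Pdgfra nor Tcf21, which mark resident fibroblasts, passed the threshold (limma, adjusted p = 0.227 and 0.485). In a bulk sample more fibroblasts and more RNA per fibroblast cannot be told apart. None of the 22 macrophage and leukocyte markers passed, and 1 of 15 endothelial markers did, Cdh5, which fell by 0.37.

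**Figure D2:**
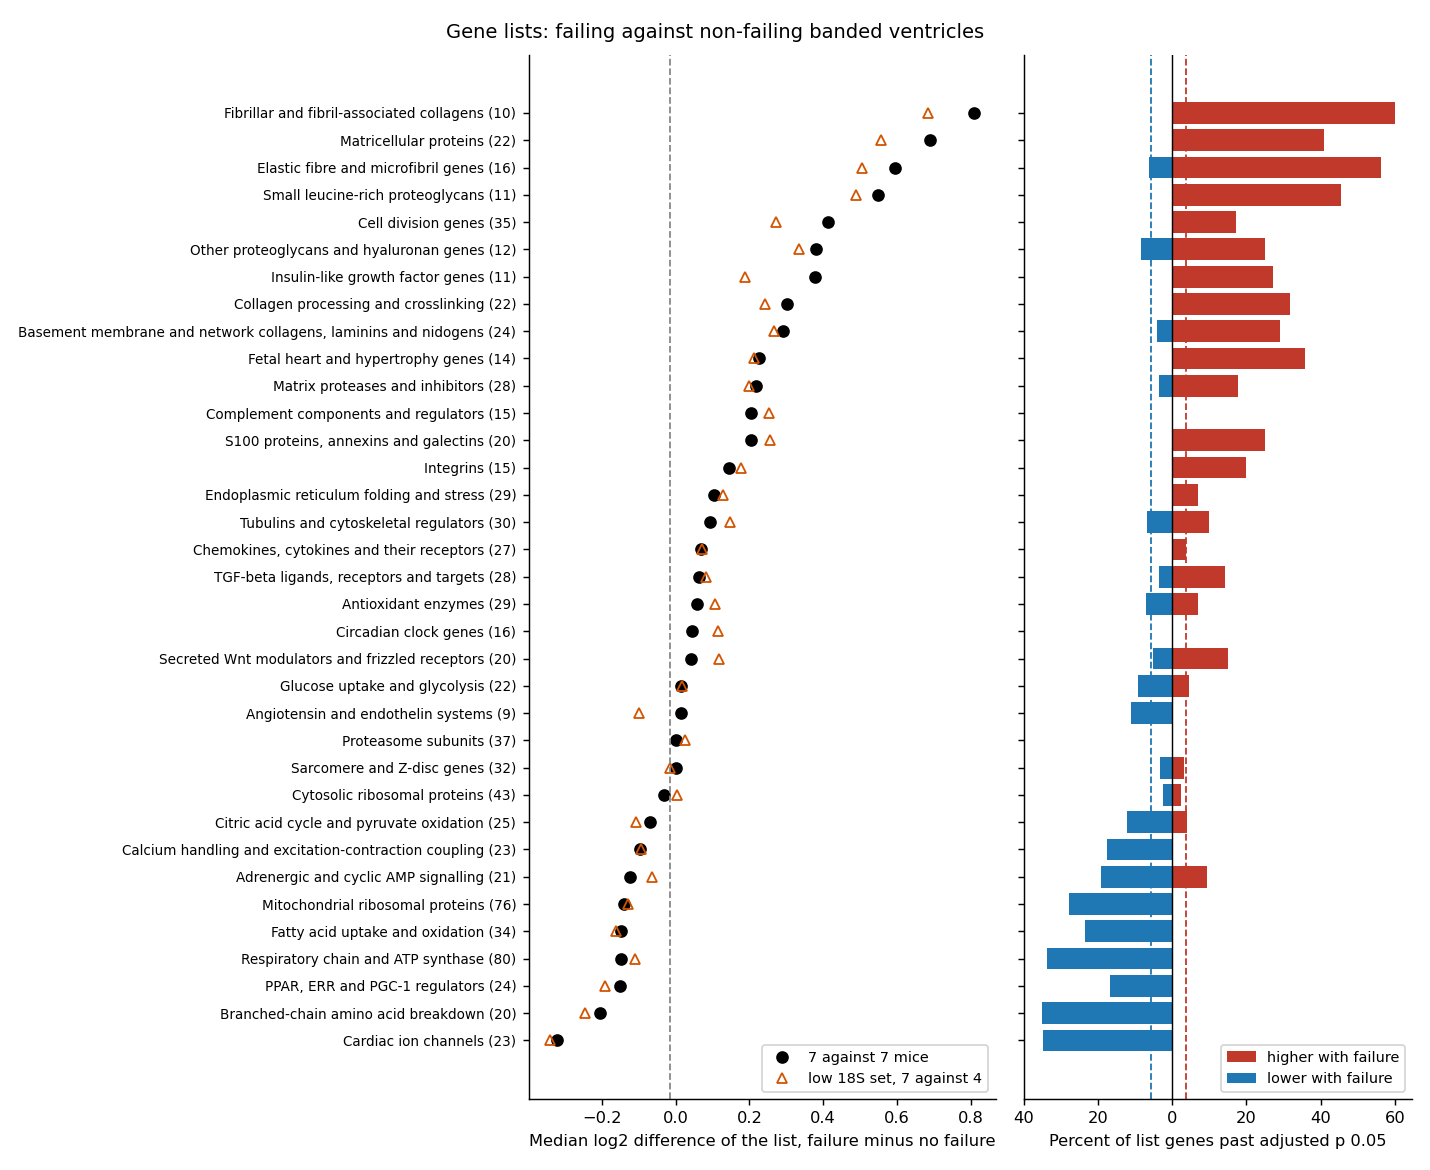
The 35 function lists, with the number of genes tested in each in brackets. Left, the median log2 difference of each list (failure minus no failure) over 7 against 7 mice (filled circles) and in the low 18S set (open triangles), with the median of all genes dashed. Right, the percent of genes in each list past the threshold, higher (red, to the right) or lower (blue, to the left), with the shares over all genes, 3.83% and 5.65%, dashed. Fibrillar collagens (0.81) and matricellular proteins (0.69) have the highest medians over 7 against 7 mice, and ion channels (-0.32) and branched-chain amino acid breakdown (-0.21) the lowest, while glucose uptake and glycolysis (0.02) lies near all genes.

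The list of fetal heart and hypertrophy genes showed a mixed picture. Of 14 measured, Lman1l, Uchl1, Myh7, Fhl1 and Actn1 rose and none fell. Nppa and Nppb, the natriuretic peptides secreted by the strained heart, did not pass: Nppa was 14.81 to 15.51 (median 15.30) without and 15.39 to 15.55 (median 15.46) with failure (difference 0.26 ± 0.13, limma adjusted p = 0.237) and Nppb 13.97 to 14.51 (median 14.12) and 13.99 to 14.58 (median 14.34) (0.11 ± 0.22, adjusted p = 0.806). Both lay above their sham means of 13.29 ± 0.44 (SD, n = 5) and 13.21 ± 0.83 (SD, n = 5) in both banded groups. Nppa signals in the banded mice lay below the highest value in the whole table, 16.77. Myh6 read brighter than Nppa, with means of 16.58 without and 16.53 with failure. Whether bright signals were limited by the array was not tested.

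Myh7, the fetal myosin heavy chain, was 12.36 to 13.51 (median 12.80) without and 13.03 to 14.08 (median 13.84) with failure, against 10.14 ± 0.48 (SD, n = 5) in sham mice. Its 1.63-fold rise passed narrowly (limma, adjusted p = 0.049), and 10 of the 14 fits that left out 1 mouse lost the call, at worst with an adjusted p of 0.104 without mouse 5 without failure. Its differences in the 3 series of animal numbers were 0.66, 0.72 and 0.93. The adult chain Myh6 differed by -0.06 ± 0.04, the calcium pump Atp2a2 by -0.10 ± 0.05 and the skeletal actin Acta1 by 0.06 ± 0.09, none past the threshold (limma, adjusted p = 0.462, 0.21 and 0.733).

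Of the other members of the list, Uchl1, Fhl1 and Actn1 separated the groups without overlap. Uchl1, a ubiquitin hydrolase, was 7.34 to 8.53 (median 7.69) without and 8.64 to 9.27 (median 8.92) with failure, with no overlap (2.21-fold, limma adjusted p = 0.00168, and 0.033 in the low 18S set). Lman1l, a lectin-like gene, was 4.36 to 5.73 (median 5.18) and 5.68 to 6.89 (median 6.27), an overlap at the edge (2.23-fold, limma adjusted p = 0.00356). Its sham mean was 2.36 ± 0.10 (SD, n = 5). Fhl1, a sarcomere-associated LIM protein, rose 1.6-fold with no overlap, and so did Actn1, a non-muscle actinin, at 1.43-fold. Sprr1a, a stress-response gene of cardiomyocytes, was 3.57 to 4.82 (median 4.13) without and 4.45 to 8.41 (median 5.65) with failure (limma, adjusted p = 0.0134), and Star, which carries cholesterol into mitochondria, was 3.23 to 4.85 (median 4.78) and 5.07 to 7.46 (median 6.10) with no overlap (adjusted p = 0.00355). Chodl, a membrane lectin, was 3.05 to 4.33 (median 3.43) without and 3.98 to 6.13 (median 5.78) with failure (adjusted p = 0.00355). For these 3 genes at least 1 array lay below log2 4, so levels stand without a fold.

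Among 32 sarcomere and Z-disc genes, 1 rose and 1 fell, and the median was 0.00. Tnni3, adult cardiac troponin I, was 15.41 to 15.53 (median 15.46) without and 15.19 to 15.37 (median 15.30) with failure, with no overlap at a difference of only -0.18 ± 0.04 (limma, adjusted p = 0.0182). Pdlim5, a Z-disc scaffold, rose (limma, adjusted p = 0.038), but its 7 probe sets disagree on the size: the brightest, used here, gave a log2 difference of 0.19, another 0.32 and the other 5 gave 0.69 to 1.14. Of 30 tubulin and cytoskeletal genes, the actin-capping Capg (0.64), Msn (0.37) and Tubb3 rose, and Tubb4a and Map1lc3a (-0.18) fell. Tubb4a was dim, at 4.45 to 4.95 without and 3.98 to 4.50 with failure. Tubb3, a tubulin of neurons and fetal tissues, read 4.83 to 4.84 in all mice without failure, the floor of its probe set, and up to 5.70 with failure.

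Genes of mitochondrial energy production were mostly lower, by small amounts that varied between the series of animal numbers. Of 80 subunits of the respiratory chain and ATP synthase, 27 fell and none rose, only 5 differences were positive, and the median was -0.15. In 13 of the 80, all mice with failure lay below all mice without, beside 1.8% of all genes. Atp5e, a subunit of the ATP synthase, was 13.67 to 13.90 (median 13.79) without and 13.40 to 13.56 (median 13.50) with failure, with no overlap. It was 1.24-fold lower (log2 difference -0.31 ± 0.06, limma adjusted p = 0.00372) and the only member of the list past the threshold in the low 18S set (adjusted p = 0.046). Ndufs4, an assembly subunit of complex I, was 12.03 to 12.36 (median 12.13) without and 11.65 to 12.10 (median 11.85) with failure (1.24-fold lower, limma adjusted p = 0.0167), with overlap. Its difference was -0.60, -0.20 and -0.10 in the 3 series of animal numbers.

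The remaining 25 falls reached across the chain: 15 more Nduf genes, nearly all of complex I, Sdhc of complex II, Uqcrq, Uqcrc1 and Uqcr11 of complex III, Cox7a1, Cox6a2 and Cox5b of complex IV and further subunits of the ATP synthase. They ranged from -0.30 for Ndufv3 to -0.16 for Ndufa8. The list median was lower in the series of animal numbers that holds the high 18S mice (-0.24) than in the others (-0.09 and -0.08), and -0.11 in the low 18S set. With the array set as a block, 17 fell and none rose.

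Mitochondrial ribosomal proteins, which make the chain subunits encoded in mitochondrial DNA, fell alongside. Of 76, 21 fell and none rose (27.6% lower, beside 5.65% of all genes), with a median of -0.14. Mrpl23 was 11.19 to 11.58 (median 11.28) without and 10.86 to 11.12 (median 10.98) with failure, with no overlap (1.32-fold lower, limma adjusted p = 0.00512), and Mrps24 was 1.31-fold lower (adjusted p = 0.0175). In the low 18S set 1 of the 76 fell, where 0.773% of all genes did. It was neither of these (limma, adjusted p = 0.0747 and 0.159), and the list median was -0.13. With the array set as a block, 16 fell. Cytosolic ribosomal proteins did not follow: of 43, Rpl3l fell and Rps6 rose. Rpl3l, a ribosomal protein made in heart and skeletal muscle, was 11.43 to 12.25 (median 11.88) without and 11.05 to 11.63 (median 11.27) with failure (1.57-fold lower, limma adjusted p = 0.00268). None of 37 proteasome subunits passed.

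**Figure D3:**
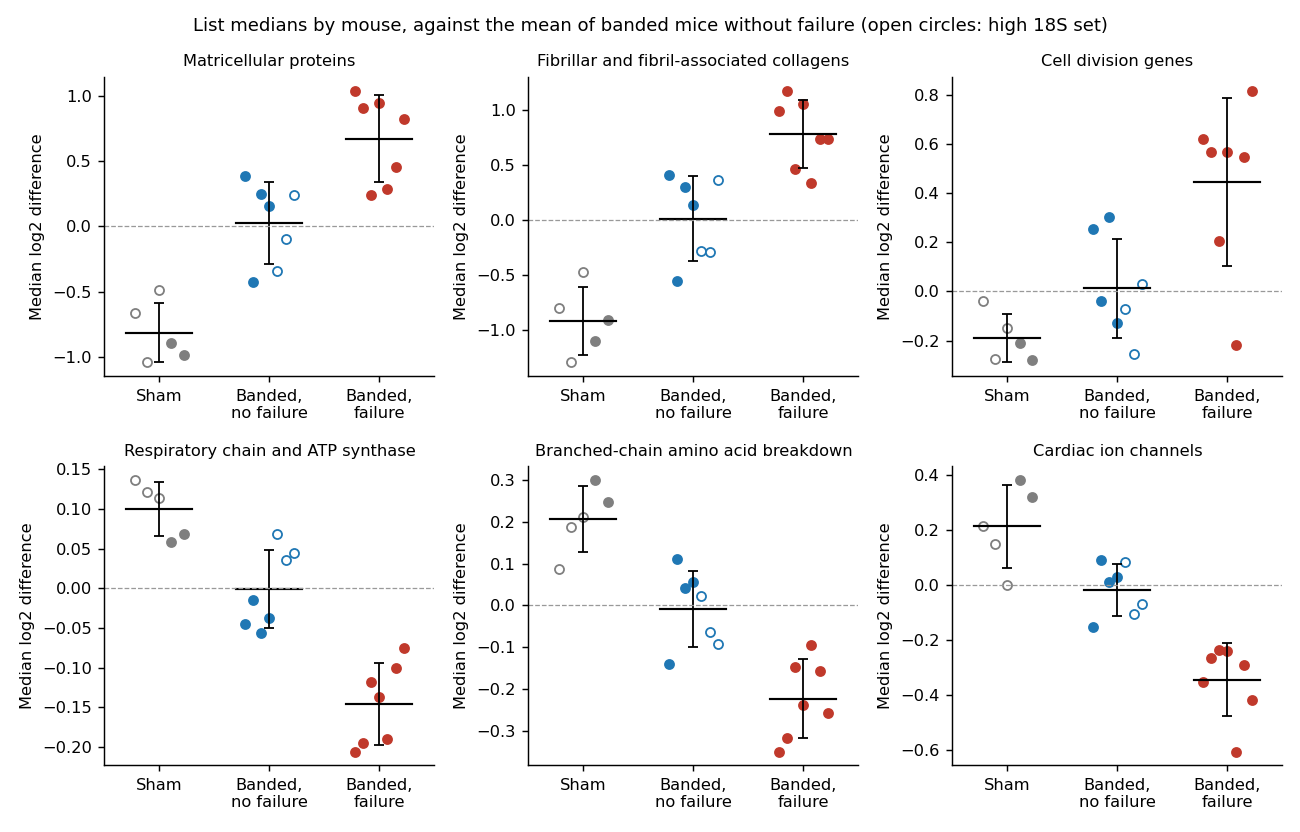
Median log2 difference of 6 gene lists in each mouse, taken against each gene's mean over the 7 banded mice without failure. Points are mice, open circles the high 18S arrays, lines the means and bars the SD. For the respiratory chain list the 3 high 18S mice lie above the other 4 mice without failure, and all 7 mice with failure lie below all 7 without. Mouse 5 with failure is the lowest of its group for cell division genes, at -0.22.

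Genes of fuel use moved in the same direction. Of 34 genes of fatty acid uptake and oxidation 8 fell and none rose, with a median of -0.15, and 4 of the 34 fell in the low 18S set. Mlycd, malonyl-CoA decarboxylase, which relieves the block on fatty acid entry into mitochondria, was 9.12 to 9.73 (median 9.49) without and 8.93 to 9.15 (median 8.95) with failure. The ranges overlapped at the edge, and the fall was 1.39-fold (limma, adjusted p = 0.00456, and 0.0487 in the low 18S set). Acot2, a mitochondrial thioesterase, was 1.34-fold lower (adjusted p = 0.0195). Eci1, Etfb, Acaa2, Decr1, Cpt2 and Ech1 fell by 0.24 to 0.40. Ces1d, a lipase and carboxylesterase, was among the 10 largest falls past the threshold: 8.73 to 10.36 (median 9.74) without and 7.15 to 8.86 (median 8.25) with failure, from a sham mean of 11.04 ± 0.32 (SD, n = 5) (2.71-fold lower, limma adjusted p = 0.00343), and 3 of its 3 probe sets were lower.

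Breakdown of branched-chain amino acids had 7 falls and no rise among 20 genes (35% lower, beside 5.65% of all genes), with a median of -0.21. In 5 of the 20, all mice with failure lay below all without, beside 1.8% of all genes. In the low 18S set 2 of the 20 fell, beside 0.773% of all genes. Bckdhb, of the complex that commits these amino acids to breakdown, was 10.51 to 11.26 (median 10.97) without and 10.26 to 10.62 (median 10.38) with failure (1.42-fold lower, limma adjusted p = 0.00787). Mcee, which acts on methylmalonyl-CoA, was 11.31 to 11.62 (median 11.53) without and 11.03 to 11.23 (median 11.15) with failure, with no overlap (1.28-fold lower, limma adjusted p = 0.000903, and 0.034 in the low 18S set). The other 5 were Mmut (-0.34), Pcca and Hsd17b10 (both -0.26), Mccc2 (-0.24) and Hibadh (-0.22). With the array set as a block, 12 of the 20 fell, beside 5.03% of all genes.

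Glucose genes did not move as a list, with a median of 0.02 over 22. Slc2a4, the insulin-responsive glucose transporter of muscle, was 11.998 to 12.39 (median 12.27) without and 11.71 to 12.07 (median 11.87) with failure and fell 1.27-fold (limma, adjusted p = 0.0395). Its difference was larger in the low 18S set, -0.47 (limma, adjusted p = 0.0227). The second probe set of Slc2a4 gave -0.23 over all mice (limma, unadjusted p = 0.142). Ldhb fell by 0.26, and Pfkp, a non-muscle phosphofructokinase, rose 1.45-fold (adjusted p = 0.0162). Of 25 genes of pyruvate oxidation and the citric acid cycle, Pdp2, the phosphatase that activates pyruvate dehydrogenase, fell 1.73-fold (limma, adjusted p = 0.0078), Pdk2 and Dlst fell by 0.43 and 0.19, and Pdk3, an inhibiting kinase, rose from 3.76 to 5.21 (median 4.76) to 4.89 to 5.63 (median 5.54) (adjusted p = 0.0387).

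Nuclear regulators of these genes were lower in part: of 24 genes of the PPAR, ERR and PGC-1 network, Rxrg, Lpin1, Rxra (-0.28) and Esrrg (-0.24) fell and none rose. Rxrg, a partner of the PPAR receptors, was 9.39 to 9.95 (median 9.49) without and 8.68 to 9.39 (median 9.12) with failure, adjoining ranges without overlap (1.39-fold lower, limma adjusted p = 0.0112, and 0.0495 in the low 18S set). Lpin1, a coactivator of fatty acid oxidation genes, was 1.27-fold lower (adjusted p = 0.0165).

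Ion channels had the lowest median of the 35 lists, -0.32, with 8 of 23 lower and none higher, and 1 of the 23 was lower in the low 18S set. Scn4b, an accessory subunit of the sodium channel, was 7.47 to 8.31 (median 7.68) without and 5.86 to 7.32 (median 6.28) with failure. No mouse overlapped, and it was 2.4-fold lower (log2 difference -1.27 ± 0.27, limma adjusted p = 0.00817, and 0.0508 in the low 18S set). The other 7 carry potassium currents: Kcnj3 (-0.80), Kcnd2 (-0.68) and its partner Kcnip2 (-0.51) of the transient outward current, the background channel Kcnk3 (-0.49), and Kcnj11 (-0.47), Kcnj8 (-0.45) and Abcc9 (-0.27), which build ATP-sensitive channels. Kcnj8 and Abcc9 are also markers of pericytes, of whose list of 10 smooth muscle and pericyte genes they alone passed (median -0.02), and Kcnj3 marks the atria. The part of these cells in the falls was not tested. Kcna1, a potassium channel outside the list, was among the 10 largest falls past the threshold at 4.75 to 6.54 (median 5.08) without and 2.68 to 4.88 (median 4.29) with failure (limma, adjusted p = 0.0295), a call lost in 5 of the 14 fits that left out 1 mouse.

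Of 23 calcium handling genes, 4 fell: Camk2g (-0.45) and Camk2a (-0.36), chains of the calcium-dependent kinase, Hrc (-0.34), which binds calcium in the sarcoplasmic reticulum, and Fxyd1 (-0.26), which regulates the sodium pump. The second probe set of Camk2g gave only -0.037 (unadjusted p = 0.608). Among 21 genes of adrenergic and cyclic AMP signalling, Grk5, the kinase that desensitises adrenergic receptors, rose by 0.62 with no overlap and Prkar1a by 0.30. Pde4a, a phosphodiesterase of cyclic AMP, was 7.51 to 7.89 (median 7.72) without and 6.53 to 7.48 (median 7.06) with failure, with no overlap (1.55-fold lower, limma adjusted p = 0.00637). Pde4d and Prkar2a fell by 0.41 and 0.17, and the alpha receptor Adra1b was 4.95 to 6.38 (median 5.68) without and 3.59 to 5.09 (median 4.98) with failure (adjusted p = 0.0478). Nr3c2, the mineralocorticoid receptor, was the 1 gene of 9 in the angiotensin and endothelin systems to pass, 1.66-fold lower (adjusted p = 0.0199).

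**Figure D4:**
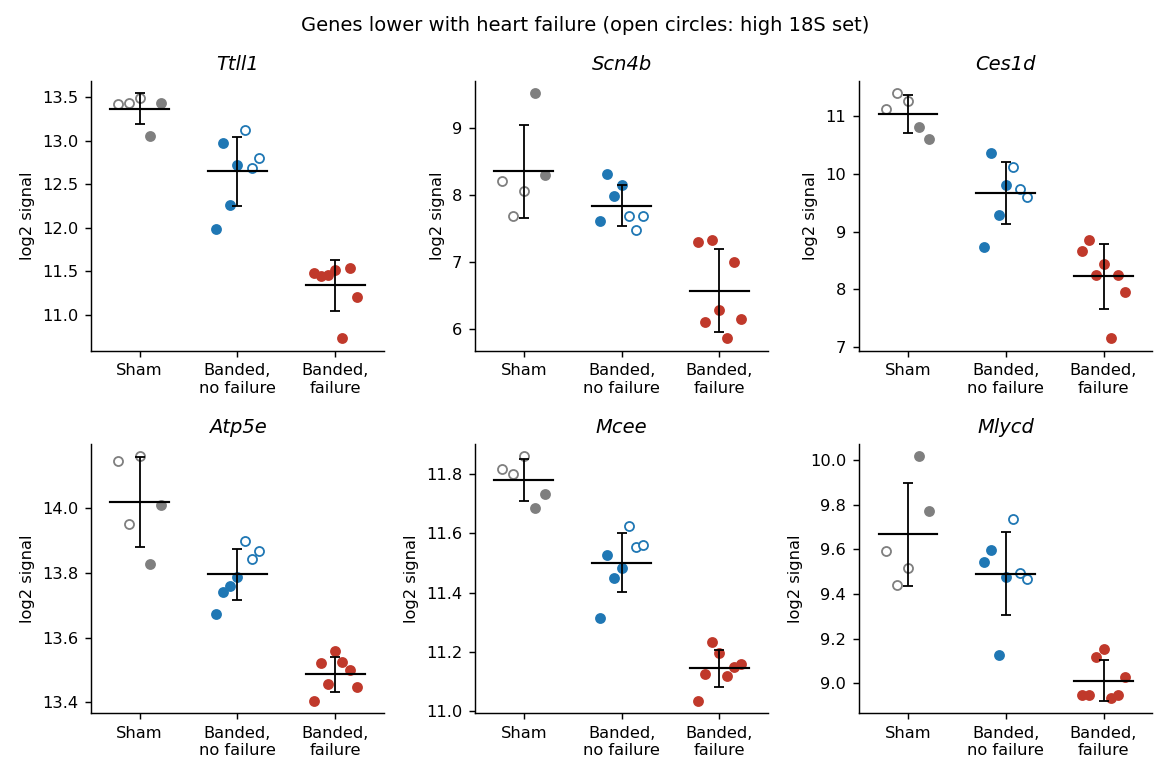
Log2 signal of 6 genes that were lower with failure, in each of the 19 mice, by group. Points are mice, open circles the high 18S arrays, lines the means and bars the SD. The groups with and without failure do not overlap for Ttll1, Scn4b, Atp5e and Mcee, and overlap by 1 or more mice for Ces1d and Mlycd.

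The other leading falls were in genes of the cell surface and cytoskeleton. Ttll1, of an enzyme family that adds glutamate chains to tubulin, was 11.98 to 13.13 (median 12.72) without and 10.73 to 11.53 (median 11.46) with failure. No mouse overlapped, and its adjusted p of 0.000322 (limma) held in the low 18S set (0.0315). The brighter of its 2 probe sets, of a kind that may bind related transcripts, gave -1.31 and the other -0.50. Mme, a membrane peptidase that degrades natriuretic peptides, was 5.74 to 6.82 (median 6.25) without and 3.45 to 5.56 (median 5.30) with failure (adjusted p = 0.00661). Lrrc4b, an adhesion protein, was 5.64 to 6.95 (median 6.67) without and 4.64 to 5.59 (median 5.27) with failure (2.25-fold lower, adjusted p = 0.00299), and neither Mme nor Lrrc4b overlapped. Lingo3 and the ephrin Efnb3 were 2.13-fold and 2.03-fold lower (limma, adjusted p = 0.0213 and 0.00718).

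Cell division genes were higher as a list. Of 35, 6 rose and none fell, 34 differences were positive, and the median was 0.41. Cks2, a partner of cyclin-dependent kinases, was 5.35 to 6.91 (median 6.06) without and 6.31 to 7.82 (median 7.23) with failure (1.95-fold, limma adjusted p = 0.029). Anln, an actin-binding protein of the cleavage furrow, was 4.89 to 5.65 (median 5.37) without and 5.37 to 6.78 (median 5.99) with failure (1.57-fold, adjusted p = 0.034). The groups overlapped for both, and both signals were low. Mcm7, Mcm6 and Ccnd2 rose by 0.41, 0.38 and 0.38. Kif11, the motor that separates spindle poles, passed as well (limma, adjusted p = 0.0264). All mice without failure lay below log2 4, at 3.54 to 3.89, against 3.54 to 4.68 with failure, so no size is given. With a sham mean of 3.38, Kif11 could meet the filter of 5 arrays above log2 4 only with mice with failure. Its call therefore adds no support to the list. Leaving out mouse 5 with failure raised the count from 6 to 17, where 4.27% of all genes were higher, while the low 18S set had 1 and the fit with a block for array set 2. The cells in which these genes were expressed cannot be told from bulk RNA.

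The promoters of cell division genes are shown because 34 of the 35 differences were positive and such genes share known promoter elements. Whether these genes varied together between mice was not tested. Elements searched on both strands, from 250 bases before to 50 after each start in RefSeq (build GRCm38.p6), were the CCAAT box (CCAAT), the cell cycle homology region CHR (TTTGAA or TTTAAA), the E2F site (TTTCCCGC, TTTGGCGC or TTTCGCGC), the E-box (CACGTG) and the site of oestrogen-related receptors (TNAAGGTCA). Capitals mark matches. The promoters of Cks2 (chr13:51644982-51645281, plus strand), Anln (chr9:22389157-22389456, minus strand) and Kif11 (chr19:37376132-37376431, plus strand) read as follows, and that of Atp5e (chr2:174464052-174464351, minus strand) is set beside them as one of a gene that fell.
Cks2: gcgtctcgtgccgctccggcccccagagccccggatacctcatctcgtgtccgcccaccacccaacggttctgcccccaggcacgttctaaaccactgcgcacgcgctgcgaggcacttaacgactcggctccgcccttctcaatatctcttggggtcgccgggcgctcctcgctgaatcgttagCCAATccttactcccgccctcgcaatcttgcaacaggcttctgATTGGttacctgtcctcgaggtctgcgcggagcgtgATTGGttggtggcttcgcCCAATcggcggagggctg
Anln: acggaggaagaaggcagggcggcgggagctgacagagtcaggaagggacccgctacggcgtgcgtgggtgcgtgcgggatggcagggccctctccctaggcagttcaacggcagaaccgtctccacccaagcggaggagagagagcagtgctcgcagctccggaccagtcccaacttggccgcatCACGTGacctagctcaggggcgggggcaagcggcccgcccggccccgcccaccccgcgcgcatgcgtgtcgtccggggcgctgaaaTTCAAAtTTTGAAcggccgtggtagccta
Kif11: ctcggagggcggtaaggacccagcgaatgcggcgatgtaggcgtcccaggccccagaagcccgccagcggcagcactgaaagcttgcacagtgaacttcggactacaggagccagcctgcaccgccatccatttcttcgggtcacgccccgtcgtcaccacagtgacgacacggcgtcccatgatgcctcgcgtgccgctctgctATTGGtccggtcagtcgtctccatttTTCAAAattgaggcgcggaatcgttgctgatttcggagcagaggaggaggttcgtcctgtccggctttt
Atp5e: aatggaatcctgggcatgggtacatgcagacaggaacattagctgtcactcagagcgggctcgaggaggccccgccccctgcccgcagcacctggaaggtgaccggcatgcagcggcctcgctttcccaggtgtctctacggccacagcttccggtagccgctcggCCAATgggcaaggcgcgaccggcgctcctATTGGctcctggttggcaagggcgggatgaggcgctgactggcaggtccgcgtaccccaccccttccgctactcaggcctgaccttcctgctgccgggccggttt
A CCAAT box was found for 23 of the 28 cell division genes with a listed promoter (82.1%), against 42.7% of the 8722 tested genes with one, a CHR for 20 (71.4% against 22.04%) and an E2F site for 6 (21.4% against 4.12%). Over all 27025 genes in the promoter table these shares were 41.1%, 30.6% and 2.12%. Cks2 holds 4 CCAAT boxes, Anln 2 CHR elements and an E-box, and Kif11 1 CCAAT box and 1 CHR. Among 65 respiratory chain genes with a promoter, 2 held the site of oestrogen-related receptors (3.08%, against 0.825% of the tested genes and 1.43% of all), and Atp5e holds 2 CCAAT boxes, as the promoters of 40% of that list hold at least 1. These matches describe sequence and were not set against the expression differences.

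Several smaller lists had few changes. Of 29 antioxidant and oxidase genes, Nox4, which makes hydrogen peroxide, was 4.35 to 7.43 (median 6.56) without and 6.999 to 9.22 (median 7.85) with failure (3.23-fold, limma adjusted p = 0.0262). The groups overlapped, and Gpx1 rose by 0.24 while Gstm1 and Sod2 fell by 0.33 and 0.17. Of 20 S100 proteins, annexins and galectins, Lgals3 (galectin-3), Anxa1, Anxa2, Anxa3 and Anxa7 rose. Lgals3 was 6.87 to 9.05 (median 8.35) without and 8.88 to 11.18 (median 9.40) with failure (2.87-fold, adjusted p = 0.0239), and Anxa1 rose 1.68-fold with no overlap (adjusted p = 0.00742). Of 29 genes of protein folding in the endoplasmic reticulum, the translocon subunit Sec61a1 and the stress factor Atf4 rose 1.31-fold and 1.28-fold. Only Cx3cl1 (0.52) passed among 27 chemokines, cytokines and receptors, and none among 15 complement genes or 16 clock genes. The second probe set of Cx3cl1 gave 0.22 (limma, unadjusted p = 0.264). Egr2, an immediate early factor, was 5.70 to 6.69 (median 6.18) without and 5.76 to 8.72 (median 7.40) with failure (2.4-fold, adjusted p = 0.0167), and mouse 5 was the lowest of those with failure, at 5.76.

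The largest fall past the threshold was in a gene of the atria. Myl7, the atrial light chain of myosin, was 8.86 to 13.75 (median 11.85) without and 2.30 to 13.89 (median 6.03) with failure, and passed narrowly (limma, adjusted p = 0.0457). Mouse 1 with failure, at 13.89, was higher than every mouse without, while mice 3, 6 and 7 with failure were below log2 4. Sln and Myl4, further atrial genes, followed the same mice: Sln was 12.92 and Myl4 14.23 in mouse 1 with failure. Neither Sln (adjusted p = 0.0968) nor Myl4 (adjusted p = 0.111) passed. Within the series of animal numbers that holds mouse 1, the Myl7 difference was 0.41, and in the others -7.67 and -6.62. Leaving out 1 mouse lost the Myl7 call in 10 of 14 fits.

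Hamp, which encodes the iron hormone hepcidin, had the second largest fall among genes past the threshold. It was 4.56 to 9.50 (median 7.20) without and 3.46 to 5.24 (median 3.76) with failure (limma, adjusted p = 0.021), with overlap. Among mice without failure and sham mice, the mouse with the most Myl7 in each group also had the most Hamp, namely mouse 4 without failure (13.75 and 9.50) and sham mouse 4 (12.67 and 7.27). Among mice with failure, mouse 1 had the most Myl7 (13.89) and Hamp at 5.20, just below the highest Hamp, 5.24 in mouse 2. Mouse 2 had the next most Myl7, at 9.82, and mice 3 to 7 had Hamp at 3.46 to 4.43. Of the 8 atrial markers measured, Myl7 and Kcnj3 passed. The list's mean log2 level ranged from 8.88 to 11.2 without and from 6.81 to 11.6 with failure. Of the 8 differences, 6 were negative and 2 positive, so the markers did not all move one way. The positive ones were Dkk3 (0.75) and Nppa (0.26), neither past the threshold (limma, adjusted p = 0.356 and 0.237). Stard10 and Tbx5 were lower and also missed the threshold (limma, adjusted p = 0.0538 and 0.447). The labels describe removal of the atria, and the part of atrial tissue in these differences was not tested.

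**Figure D5:**
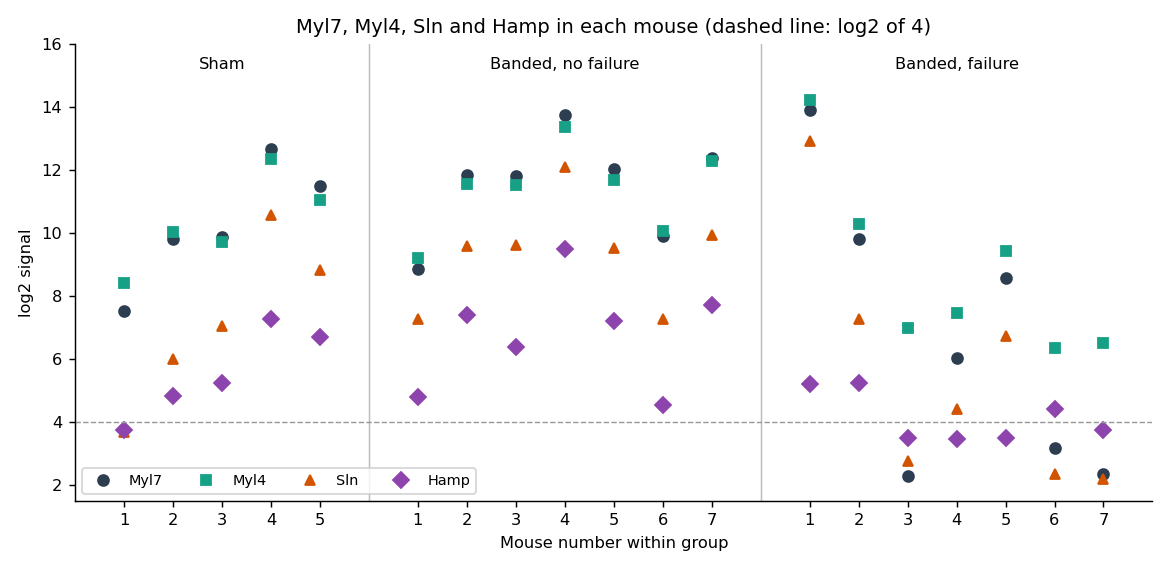
Log2 signal of Myl7, Myl4, Sln and Hamp in each of the 19 mice, numbered within their group. Each symbol is 1 gene in 1 mouse and the dashed line is a log2 signal of 4. Mouse 1 with failure has the highest Myl7, Myl4 and Sln of all mice, and mice 3, 6 and 7 with failure have Myl7 and Sln below the line.

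Some genes that separated failing from non-failing ventricles stood in the order sham, no failure, failure, as seen in examples chosen after their values were known. Thbs4 had means of 7.79 in sham mice, 10.48 without and 12.22 with failure, Ltbp2 5.32, 7.88 and 9.62, and Uchl1 6.93, 7.85 and 8.998. For these 3 genes the step from sham to banding without failure also passed (limma, adjusted p = 6.07e-05, 0.000241 and 0.00334). Other genes differed between the banded groups with a step from sham that missed the threshold. Among these were Anxa1 at 10.80, 11.09 and 11.84 (adjusted p from sham = 0.261), Pde4a at 7.71, 7.74 and 7.11 (adjusted p = 0.918), Lrrc4b at 6.48, 6.43 and 5.26 (adjusted p = 0.891) and Pdp2 at 6.54, 6.55 and 5.76 (adjusted p = 0.975). Both comparisons use the mice without failure, so they are given side by side only.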

How the data were processed

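Left ventricular RNA of 19 mice was measured on 1 Affymetrix array per mouse with 45101 probe sets. The authors deposited log2 signals. Per the submitters' processing notes these came from GCRMA, with no version given in the sources used here. That method normalises arrays together and draws dim probe sets to a floor. Arrays have no sequencing depth, and precision is limited by their number. Groups came from the labels and separate mice were the replicates. Probe sets were named through the platform annotation (34958 had 1 symbol, 932 several, 9211 none listed), and 10733 genes passed the filter given in the report.

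Groups were compared with limma 3.58.1 (R 4.3.3; lmFit and eBayes over all 19 arrays, with a term for group alone). The p-values were adjusted by Benjamini-Hochberg over 10733 genes at a threshold of 0.05. Errors of differences are standard errors of the fit, with a median of 0.0955. Tested on simulated data for this comparison with 10733 genes, the fit recovered 68% of changes of 0.5 and 95% of changes of 1 log2 unit. It made 171 calls there, 8 of them false. These rates describe the simulation alone. Whether they hold for the real arrays, some of which stood apart from their group, was not tested. The 35 function lists and 13 marker lists were described by counts and medians, with no test of a list. Organ weights were compared by exact permutation (scipy 1.17.1, Python 3.11.15, pandas 2.3.3), and figures drawn with matplotlib 3.10.9.

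The members, lists and rules were chosen with earlier results of these data known. The genes named are the 10 largest rises and 10 largest falls past the threshold, the 2 largest changes past it in each function list, Nppa, Nppb, Myh7, Myh6, Atp2a2, Col1a1, Col3a1, Postn, Tgfb2, Timp1 and Acta1, and marker genes where 5 or fewer passed. Other genes were chosen after their values were seen. No fold is given for a gene named by this rule with an array below log2 4 in a compared group. Alternatives were the 14 banded arrays alone, the filter, the mean of a gene's probe sets, 2 further normalisations, the 18S array set and the series of animal numbers as blocks or alone, the actin control, other limma settings and leaving out each mouse; leaving out the high 18S mice with all other arrays kept was chosen after seeing the data. The labels give organ weights in mg, but their values are not on that scale, so only weight over tibia length, as the labels give that index, is used. Promoter sequences are from RefSeq, build GRCm38.p6; the arrays' files name no build.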

Additional observations from a re-analysis of the deposited data

Results flagged for a closer look

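In 9 of the 188 groups of mice tested, over 89 genes and 5 organ measures, 1 mouse lay far from the others of its group, where chance gives about 9.4 (1 in 20). Mouse 5 with heart failure was the lowest of its group for 5 genes: Ttll1 at 10.7 (the other 6 at 11.2 to 11.5), Mme at 3.45 (4.99 to 5.56), Lingo3 at 4.21 (5.84 to 6.45), Col8a2 at 6.14 (8.05 to 9.17) and Adra1b at 3.59 (4.71 to 5.09). Lrrc4b was 4.64 in mouse 6 with heart failure (the others 5.21 to 5.59), and Acta1 was 15.7 in mouse 7 with heart failure, the highest of that group (the others 15.5 to 15.6). Anln was 4.89 in mouse 6 without heart failure (the others 5.34 to 5.65). Lung weight over tibia length was 10.8 in mouse 2 without heart failure, above the other 6 of that group at 8.52 to 9.19 and below every mouse with failure.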

How the results depend on the processing

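No paired analysis was possible because the labels give no replicate number shared by the groups. Of the 83 named genes past the threshold, 77 stayed past it in the 14 banded arrays alone, 81 after quantile normalisation, 80 with the series of animal numbers as a block, 66 with the 18S array set as a block, 59 without the filter and 16 in the low 18S set. Fewer mice or more genes tested lower such counts by construction; beyond that the cause was not tested.

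In the low 18S set alone, 149 genes passed, 66 higher and 83 lower, 17 and 1 of them at least 2-fold. Leaving out the high 18S mice with all other arrays kept gave 110, 46 and 64, and 17 and 2. Within the first series of animal numbers 1813 passed, 655 higher and 1158 lower, 164 and 66 at least 2-fold. In that series all mice without failure are high 18S and none with failure is. Within the second, limma called 0 genes in either direction, with 906 at an unadjusted p under 0.05, and within the third 0 higher and 3 lower, 0 at least 2-fold, with 1346 at an unadjusted p under 0.05. Without the filter 261 were higher. Equal array medians gave 364 higher and 765 lower, so higher genes were 32.2% of the calls, against 40.4%. Leaving out 1 mouse gave 508 to 1146 calls, 197 to 458 higher and 311 to 703 lower, and 34 to 70 and 6 to 15 at least 2-fold; the fewest came without mouse 5 without failure, tied for 2-fold falls with leaving out mouse 2 without failure.

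List medians moved beyond their spread between mice as follows. With the array set as a block they were -0.22 (PPAR, ERR and PGC-1), -0.10 (angiotensin and endothelin) and 0.33 (macrophages). In the low 18S set, and without the high 18S mice, they were -0.064 (adrenergic), -0.10 (angiotensin and endothelin) and 0.11 (antioxidant). With the mean of probe sets they were -0.056 (adrenergic) and 0.085 (sarcomere), and after quantile normalisation 0.012 (cardiomyocyte markers). Within the first series they were 0.43 (basement membrane), 1.13 (matricellular), 0.54 (collagen processing), 0.56 (proteases), -0.24 (respiratory chain), -0.11 (glycolysis), -0.31 (branched-chain amino acids), -0.25 (mitochondrial ribosome), -0.090 (cytosolic ribosome), -0.058 (proteasome), 0.70 (cell division), -0.21 (PPAR, ERR and PGC-1), 0.62 (insulin-like growth factors), 0.12 (angiotensin and endothelin), -0.11 (cardiomyocyte markers), 0.56 (fibroblast markers) and 0.33 (atrial markers). Within the second they were 0.37 (fetal), 0.055 (integrins), -0.090 (respiratory chain), 0.21 (endoplasmic reticulum), -0.048 (adrenergic), 0.23 (Wnt) and -0.21 (smooth muscle and pericyte markers). Within the third they were 0.34 (fibrillar collagens), 0.14 (basement membrane), 0.27 (matricellular), 0.12 (collagen processing), 0.19 (leucine-rich proteoglycans), 0.089 (proteases), -0.080 (respiratory chain), 0.070 (glycolysis), -0.077 (mitochondrial ribosome), 0.064 (proteasome), 0.044 (sarcomere), -0.21 (PPAR, ERR and PGC-1), 0.064 (insulin-like growth factors), -0.11 (angiotensin and endothelin), 0.13 (fibroblast markers) and 0.35 (macrophages). Leaving out 1 mouse gave 0.040 to 0.10 for the antioxidant list and -0.045 to 0.12 for chemokines.

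Directions turned as follows. Within the first series Myl7 was 0.41, Myl4 0.92, Sln 1.18 and Nppb -0.0087. Acta1, which did not pass, was -0.0067 in the low 18S set and without the high 18S mice, and -0.057 within the second series, and Myh6, which did not pass either, was 0.00 after quantile normalisation. The difference in tibia length ran from -0.0507 without mouse 3 with failure to 0.148. Dim probe sets limit the rest, since differences near the floor of the signal are compressed.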

Other observations

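Mouse 5 with heart failure carried a set of genes that no other mouse with failure shared at that level. They were chosen as those farthest from the median of the other 6 mice with failure, after their values were seen, and 1 mouse allows no test. The highest were 3 secreted genes of neutrophils and the acute phase. Lcn2 (lipocalin-2) read 12.61 in mouse 5, 4.59 to 6.63 in the other 6 and 5.74 to 6.83 in mice without failure, but reached 10.21 in a sham mouse. S100a8 and S100a9, partners in calprotectin, read 11.77 and 11.05, where the other 6 lay at 4.87 to 6.13 and 4.41 to 5.81 and sham mice reached 9.63 for S100a8 and lay nearly as high for S100a9, so these 3 genes were not high in mouse 5 alone. Serpina3n, an acute-phase protease inhibitor, read 13.31 against 8.31 to 10.48, and Ptx3, a long pentraxin, 7.49 against 4.02 to 5.10. Genes known as targets of the glucocorticoid receptor stood high in the same mouse: Fkbp5 at 13.13 against 8.47 to 10.67 and Rasd1 at 10.44 against 5.41 to 5.81. Low in this mouse were Aplnr, the apelin receptor, at 8.89 against 11.74 to 12.54, and its ligand Apln at 4.89 against 7.64 to 8.02. Esm1 (3.64 against 6.10 to 7.56) and Kit (2.91 against 5.83 to 6.11) were low as well. Without this mouse, 458 genes were higher and 544 lower, against 411 and 606 with it.

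Mouse 2 without failure had the heaviest lungs of its group and among the lowest matrix signals. Its Lox (6.95), Comp (7.81), Thbs4 (9.15), Ltbp2 (6.03) and Timp1 (6.31) were each the lowest of the 7 mice without failure, and so was its left ventricular weight over tibia length, 6.42. This was noticed after the values were seen and was not tested.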
